A study of Rattus norvegicus with 10 samples.

Results

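UDP-glucuronosyltransferases join glucuronic acid to drugs, steroids, bilirubin and other lipophilic molecules in the endoplasmic reticulum of the hepatocyte, which makes them water-soluble enough to leave in bile or urine. The sugar donor is UDP-glucuronic acid, which Ugdh (UDP-glucose dehydrogenase) makes in the cytosol. The Ugt1a enzymes come from 1 locus in which different first exons are spliced to shared downstream exons, whereas the Ugt2b enzymes come from separate neighbouring genes. HMB (2-hydroxy-4-methoxybenzophenone, also called oxybenzone) is a phenolic ultraviolet filter that the rat is known to excrete largely as a glucuronide.

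The probe sets described here were those whose annotated symbol is Ugdh or holds only Ugt1a, Ugt2a or Ugt2b genes, which gave 12 of the 31042 probe sets tested. They name 17 of the 14863 genes in the annotation. They came from liver RNA of 5 Harlan Sprague Dawley rats fed HMB at 10000 ppm for 13 weeks and of 5 control rats of the same strain at 0 ppm, with 1 rat genome expression array per animal. All 10 rats ate the NTP-2000 diet and were housed 5 to a cage, so if each group filled 1 cage, the effect of a cage and that of HMB cannot be told apart. The title and chemical label of HMB 1 put it in the HMB group, but its dose label read 0 ppm. Replicates are numbered in deposition order, and the labels used here gave no sex, age or array date. Values are log2 signals, on which a difference of 1 is a doubling, and signals of different probe sets do not rank transcript amounts: brighter, dimmer and brightest only tell the probe sets of 1 gene or locus apart.

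Of the 12 probe sets, 1 named Ugdh, 1 named Ugt2a1 and 8 named 7 Ugt2b genes, with 2 for the gene called Ugt2b. The other two, 1370613_s_at and 1387759_s_at, were each assigned to the same 8 Ugt1a genes, among them Ugt1a1, Ugt1a6 and Ugt1a7c. No Ugt1a gene had a probe set of its own, so a change in 1 Ugt1a first exon could not be told apart from a change in another. No probe set was assigned to Ugt2a3 or Ugt2b37 in the annotation used here, and Ugt2b17 is listed as a synonym of both Ugt2b1 and Ugt2b15. Precision was set by having 5 arrays in each group. In whole liver RNA, fewer cells of a type and less RNA per cell cannot be told apart.

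RefSeq promoter windows of assembly GRCr8, from 250 bases before to 50 bases after the gene start, were found for 15 of the 17 genes that the 12 probe sets name. Stretches from 5 Ugt2b promoters are printed first, because they show what these neighbouring genes have in common. HNF1, a transcription factor of the hepatocyte, binds a pair of half-sites, here searched on both strands as GTTA, any 5 bases, then TAAC, letters chosen after the promoters had been seen. The capitals mark that match and the lower case its flanks of 20 bases, 5′ to 3′ on the plus strand.
Ugt2b, chr14:20985367-20985419: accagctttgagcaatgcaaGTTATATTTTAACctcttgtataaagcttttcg
Ugt2b15, chr14:21122780-21122832: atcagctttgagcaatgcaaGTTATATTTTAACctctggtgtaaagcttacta
Ugt2b35, chr14:21208346-21208398: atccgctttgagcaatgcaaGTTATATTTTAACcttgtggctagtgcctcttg
Ugt2b7, chr14:21251437-21251489: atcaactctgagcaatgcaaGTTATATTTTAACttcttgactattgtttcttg
Ugt2b10, chr14:21462756-21462808: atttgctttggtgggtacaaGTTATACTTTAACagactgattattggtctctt
The match began 62 bases before the start in Ugt2b, 66 in Ugt2b15, 75 in Ugt2b35, 78 in Ugt2b7 and 65 in Ugt2b10. It was present in the windows of 72 of all 27457 genes (0.262%), and Ugt2b1 and Ugt2b34l1 had none in theirs.

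The core of the xenobiotic response element, GCGTG on either strand, to which the dioxin receptor AhR binds, stood in the windows of 6 of the 15 genes and in those of 32.4% of all genes. Ugt2b34l1 has a pair of overlapping windows, so the 15 genes have 16 windows. Those of Ugt1a6, the phenol-conjugating enzyme known to be induced through AhR, and of Ugdh are shown because the receptor's target genes are described below. Capitals mark the match in both, which began 133 bases before the start in Ugt1a6 and 207 in Ugdh.
Ugt1a6, chr9:96194865-96194909: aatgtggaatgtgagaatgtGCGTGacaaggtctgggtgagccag
Ugdh, chr14:43202291-43202335: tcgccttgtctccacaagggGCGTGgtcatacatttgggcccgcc
The other 4 genes with the core were Ugt1a3, Ugt1a7c, Ugt1a8 and Ugt2b34l1. The core of the antioxidant response element, searched as TGAC, any 3 bases, then GC on either strand, was found in Ugdh, where it overlaps that match, and in 13.1% of all genes. These matches describe letters in the windows and were not tested for binding.

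Some arrays stood apart. The 3′ minus 5′ signal of GAPDH, a measure of RNA integrity and labelling, was 1.97, 2.09 and 1.90 in HMB 3, HMB 4 and HMB 5, above all controls (1.38 to 1.77), and 1.31 and 1.378 in HMB 1 and HMB 2, below them. The poly-A control transcripts minus the hybridisation controls ran from -1.96 to -1.47 in HMB rats and from -2.19 to -1.90 in controls. Each array's log2 values had an SD of 2.38 to 2.431 in HMB rats and 2.434 to 2.50 in controls, so it separated the groups without overlap, and its part in the results was not tested. Values without HMB 3 to 5 and without HMB 1 and 2 are given for the members with intervals above 0 and where a call or a sign changed. None of 6 hepatocyte markers passed, with Alb at -0.05, Ttr at -0.03, Serpina1 at -0.05, Cps1 at 0.06, Tat at -0.11 and Apoa1, which had the smallest p, at -0.25 (limma adjusted p = 0.157). None of 32 measured markers of other cell types (bile duct, endothelium, stellate cells, macrophages, lymphocytes, red cells and intestine) passed the test (limma adjusted p from 0.0728 to 0.994), nor did any of 12 markers of the pericentral or periportal zones.

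The comparison asked whether the enzymes of glucuronidation and the supply of their cofactor differed in liver between rats fed HMB and control rats. No member passed the test. All 12 probe sets missed the threshold (limma, Benjamini-Hochberg adjusted p under 0.05 over all probe sets), with adjusted p from 0.101 to 0.949, and 1.7% of all probe sets passed it (0.705% higher and 0.995% lower in HMB). The HMB and control values overlapped in all 12, and in all but 5.77% of all probe sets. At an unadjusted p under 0.05 there were 3 members, Ugt2b34l1, Ugt2b10 and Ugt2b15, which is 25% of the members beside 24.1% of all probe sets. The difference, HMB minus control, was above 0 in 11 members and below 0 in Ugdh, while 52.4% of all probe sets had a difference above 0. The median was 0.11 over the members and 0.01 over all probe sets. That of all probe sets depended on signal level. With the lowest 50% of mean levels left out, it was -0.09, and 0.11 over the 10 members kept.

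The 95% intervals of the 12 differences, taken one at a time, reached down to 0.772-fold, for the second Ugt2b probe set, and up to 1.69-fold, for Ugt2b34l1. In 11 of the 12 the whole interval lay within 1.5-fold in both directions. The plot of intervals shows this for each member.

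**Figure D1:**
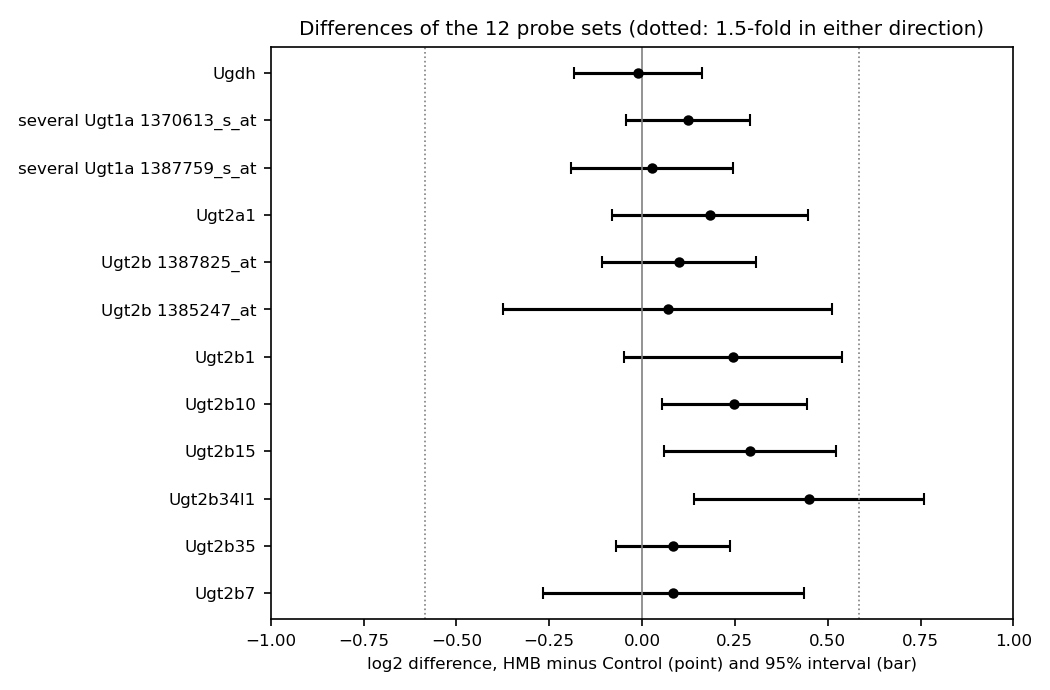
Log2 difference, HMB minus control, with its 95% interval from limma for each of the 12 probe sets (n = 5 animals per group). Dotted lines mark 1.5-fold in either direction, which only the interval of Ugt2b34l1 crosses, and 3 of the 12 intervals lie above 0.

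Ugdh, the enzyme of cofactor supply, was the member nearest to 0. Its signal was 11.42, 11.31, 11.24, 11.23 and 11.33 in HMB 1 to 5, against 11.45, 11.27, 11.41, 11.19 and 11.25 in controls 1 to 5. The groups covered almost the same range, with the highest and the lowest animal both controls. The log2 difference was -0.01 ± 0.08 (SE, 5 rats a group, limma adjusted p = 0.949), with a 95% interval from -0.18 to 0.16.

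The brighter Ugt1a probe set, 1370613_s_at, read 12.71, 12.72, 12.68, 12.80 and 12.90 in HMB 1 to 5, against 12.68, 12.63, 12.75, 12.51 and 12.63 in controls 1 to 5. All 5 HMB animals lay above the control mean, but only HMB 4 and HMB 5 lay above every control. The difference of 0.12 ± 0.08 (SE, n = 5 per group) did not pass (limma adjusted p = 0.341). The second Ugt1a probe set, 1387759_s_at, read 11.51, 11.41, 11.15, 11.19 and 11.40 in HMB rats, against 11.39, 11.39, 11.46, 11.07 and 11.20 in controls. Here HMB 1 was the highest animal and HMB 3 and HMB 4 were among the lowest. Its difference was 0.03 ± 0.10 (adjusted p = 0.892), with an interval from -0.19 to 0.25, and the correlation of the 2 probe sets' deviations from their group means over the 10 animals was 0.50 (Spearman's rho 0.32, exact permutation p = 0.179 for r and 0.396 for rho, adjusted p = 0.382 for r and 0.684 for rho). Without HMB 5 and control 4, the animals farthest from the median, r was 0.27.

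Among the Ugt2b genes the largest estimate was for Ugt2b34l1. Its signal was 6.31, 6.13, 6.30, 6.49 and 6.37 in HMB 1 to 5, against 6.21, 5.91, 6.17, 5.40 and 5.66 in controls 1 to 5. The HMB animals lay close together and 4 of them exceeded every control, whereas the controls spread widely, with an SD of 0.13 in HMB and 0.34 in controls. The difference was 0.45 ± 0.14 (SE, 5 rats a group, limma adjusted p = 0.101), with an interval of 1.10-fold to 1.69-fold. Without control 1, a setting in which 5.33% of all probe sets passed, it was 0.53 and passed (adjusted p = 0.0497). It was 0.52 without HMB 1 and 2 (adjusted p = 0.0898) and 0.35 without HMB 3 to 5 (adjusted p = 0.588).

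Ugt2b15 encodes a steroid-conjugating enzyme. It read 12.03, 12.27, 12.53, 12.44 and 12.43 in HMB 1 to 5, against 12.24, 11.92, 11.96, 12.15 and 11.96 in controls 1 to 5. In HMB 2 to 5 the signal lay above every control, while HMB 1 lay among the controls. The difference was 0.29 ± 0.11 (SE, 5 rats a group, limma adjusted p = 0.133). Without HMB 1 and 2, a setting in which 6.75% of all probe sets passed, it was 0.42 and passed (adjusted p = 0.0394). It was 0.10 without HMB 3 to 5 (adjusted p = 0.813), and the part of the GAPDH signal in this was not tested.

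Ugt2b10 had the third of the intervals above 0. Its values were 10.05, 9.68, 9.999, 10.03 and 10.01 in HMB 1 to 5, against 9.81, 9.65, 9.66, 9.80 and 9.61 in controls 1 to 5. All HMB animals except HMB 2 lay above every control, and HMB 2 lay inside the control range. The difference was 0.25 ± 0.09 (SE, 5 rats a group, limma adjusted p = 0.1303). Without HMB 2 it was 0.32 (adjusted p = 0.0724), again not past the threshold. It was 0.31 without HMB 1 and 2 (adjusted p = 0.0581) and 0.16 without HMB 3 to 5 (adjusted p = 0.687).

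Ugt2b1, the rat enzyme known for its induction by phenobarbital, read 12.14, 12.35, 11.89, 12.32 and 12.42 in HMB 1 to 5, against 12.30, 11.75, 12.23, 11.86 and 11.75 in controls 1 to 5. HMB 3 lay near controls 2, 4 and 5, while controls 1 and 3 lay among the other HMB animals. The difference was 0.25 ± 0.14 (SE, 5 rats a group, limma adjusted p = 0.282).

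The gene called Ugt2b, with the synonym Ugt2b2, is the androsterone-conjugating enzyme of rat liver, and its 2 probe sets singled out the same animal. The brighter, 1387825_at, read 12.87, 13.22, 13.28, 13.30 and 13.22 in HMB 1 to 5, against 13.20, 13.03, 12.94, 13.11 and 13.14 in controls 1 to 5. The dimmer, 1385247_at, read 10.11, 11.03, 11.28, 11.44 and 11.32 in HMB rats, against 11.17, 10.93, 11.00, 10.91 and 10.82 in controls. In both, HMB 1 was the lowest of all 10 animals, and HMB 3 to 5 were above every control. The differences were 0.10 ± 0.10 (SE, 5 rats a group, limma adjusted p = 0.542) and 0.07 ± 0.21 (adjusted p = 0.859). Without HMB 1, the animal with the dose label of 0 ppm, they were 0.18 (adjusted p = 0.195) and 0.30 (adjusted p = 0.106). With HMB 1 and HMB 2 left out, the dimmer set's difference was 0.38 and passed (adjusted p = 0.0488), in a setting in which 6.75% of all probe sets passed. The 2 probe sets' deviations from their group means had r = 0.85 and rho = 0.61 (exact permutation adjusted p = 0.303 for r and 0.279 for rho). Without HMB 1 their r was 0.30.

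Ugt2b35 varied least. Its signal was 12.99, 13.03, 13.08, 13.12 and 13.11 in HMB 1 to 5, against 13.11, 12.95, 12.96, 12.95 and 12.94 in controls 1 to 5. All HMB animals exceeded 4 of the 5 controls, and control 1 lay level with the highest HMB animals. The difference was 0.08 ± 0.07 (SE, 5 rats a group, limma adjusted p = 0.481).

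Both remaining members had mean signals below 6. Ugt2a1, known from the olfactory epithelium, averaged 4.31 ± 0.15 in HMB rats and 4.13 ± 0.25 in controls (SD, n = 5 each), a difference of 0.18 ± 0.12 (SE, limma adjusted p = 0.369). Ugt2b7 averaged 4.05 ± 0.28 in HMB rats and 3.97 ± 0.32 in controls (SD, n = 5 each), a difference of 0.08 ± 0.16 (SE, adjusted p = 0.776). Its promoter carries the same 13 bases as those of Ugt2b, Ugt2b15 and Ugt2b35 printed above. The table holds no detection calls, so whether these 2 probe sets, or others of low signal named below such as Cyp1a1, lay above background was not determined.

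**Figure D2:**
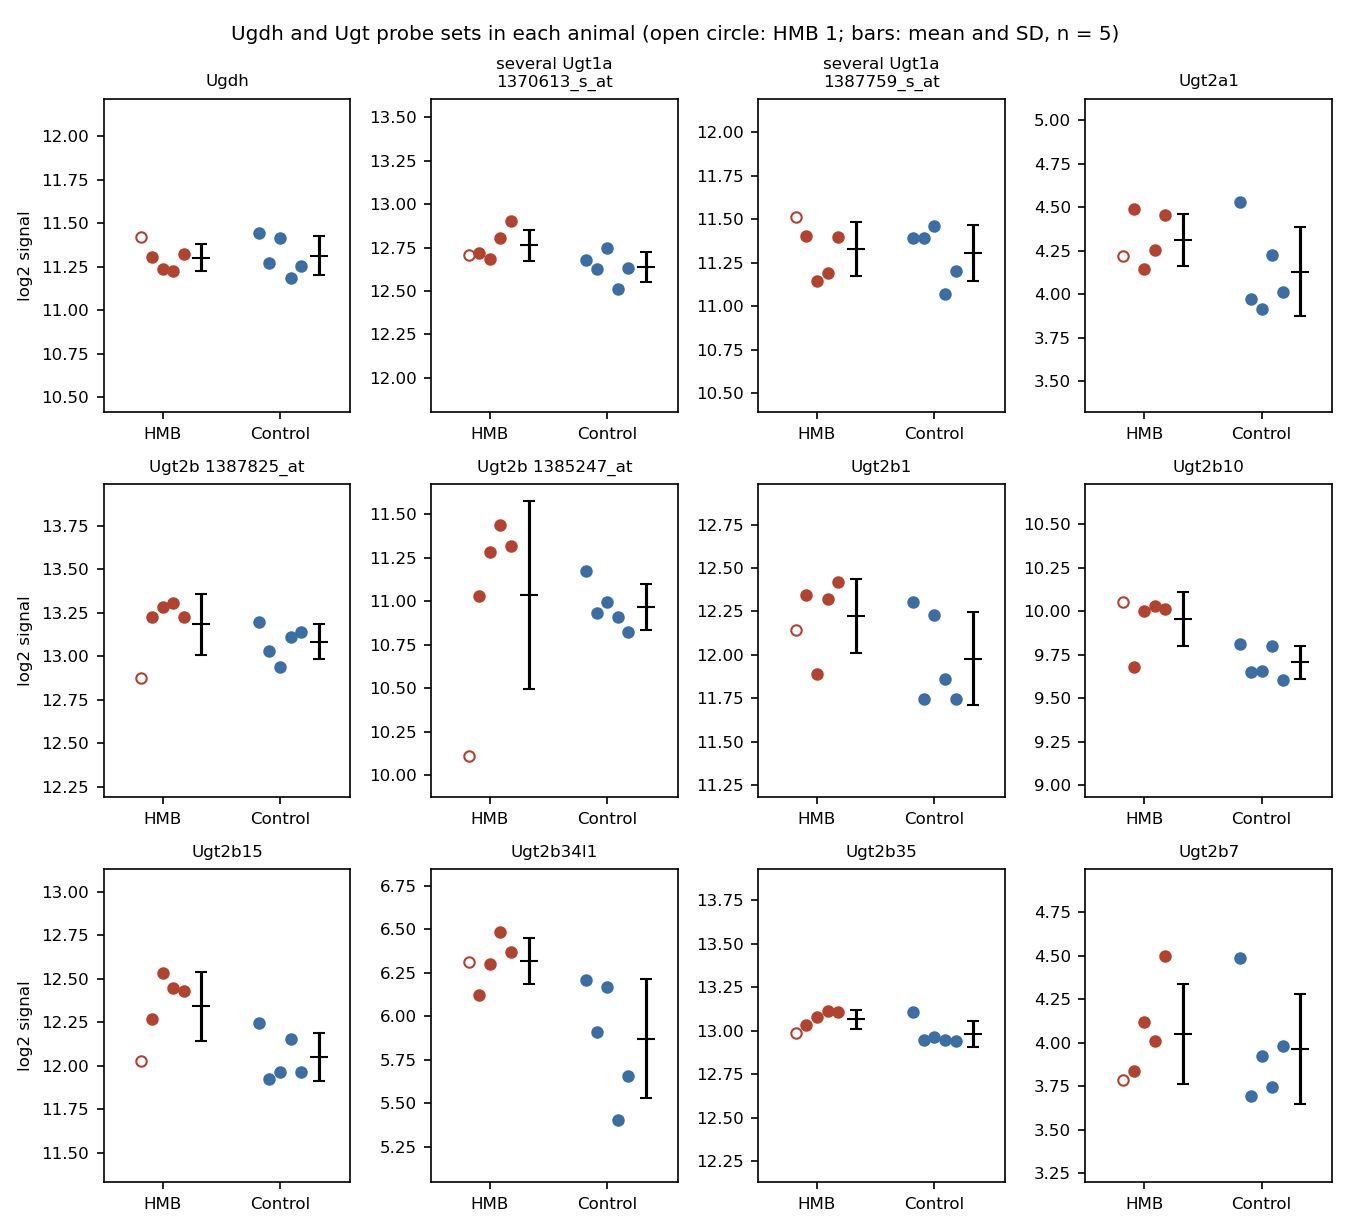
Log2 signal of each of the 12 probe sets in the 5 HMB animals (left) and the 5 control animals (right), with the mean and SD. Every panel spans the same number of log2 units. The 2 groups overlap in every panel, and HMB 1, the open circle, is the lowest animal for both Ugt2b probe sets.

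Within the groups, pairs of members differed in how closely they varied together. Correlations of deviations from the group means were computed over the 10 animals for all 66 pairs of probe sets, and 55 were above 0. Each was tested by an exact two-sided permutation of the animals within their groups, over 14400 assignments, with adjustment over the 66 pairs. The probe sets of a pair share the arrays, so differences between arrays enter every correlation. Only the pair of the dimmer Ugt2b probe set and Ugt2b35 passed, with r = 0.72 (exact permutation p = 6.94e-05, the smallest these permutations can give, adjusted p = 0.00458) and rho = 0.93 (exact permutation p = 6.94e-05, adjusted p = 0.00458). Without HMB 1 and HMB 4, the animals farthest from the median, r was 0.76. After cyclic loess normalization r was 0.87 and the pair no longer passed (exact permutation adjusted p = 0.0688).

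Ugdh and the second Ugt1a probe set had the highest r, 0.87, and a rho of 0.90 (exact permutation p = 0.00437 for r and 0.00153 for rho), which did not pass after adjustment (0.108 for r and 0.0504 for rho). Leaving out HMB 1 and control 1 gave r = 0.89. Ugt2b15 and the brighter Ugt2b probe set had r = 0.85 and rho = 0.68 (exact permutation p = 0.00778 for r and 0.0437 for rho, adjusted p = 0.108 for r and 0.279 for rho), and r was 0.74 without HMB 1 and control 3. Between the second Ugt1a probe set and the brighter Ugt2b probe set r was -0.63 and rho -0.52 (exact permutation p = 0.0506 for r and 0.148 for rho, adjusted p = 0.303 for r and 0.391 for rho), and r was -0.71 without HMB 3 and control 4. The scatter plots show the 3 pairs with positive r.

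**Figure D3:**
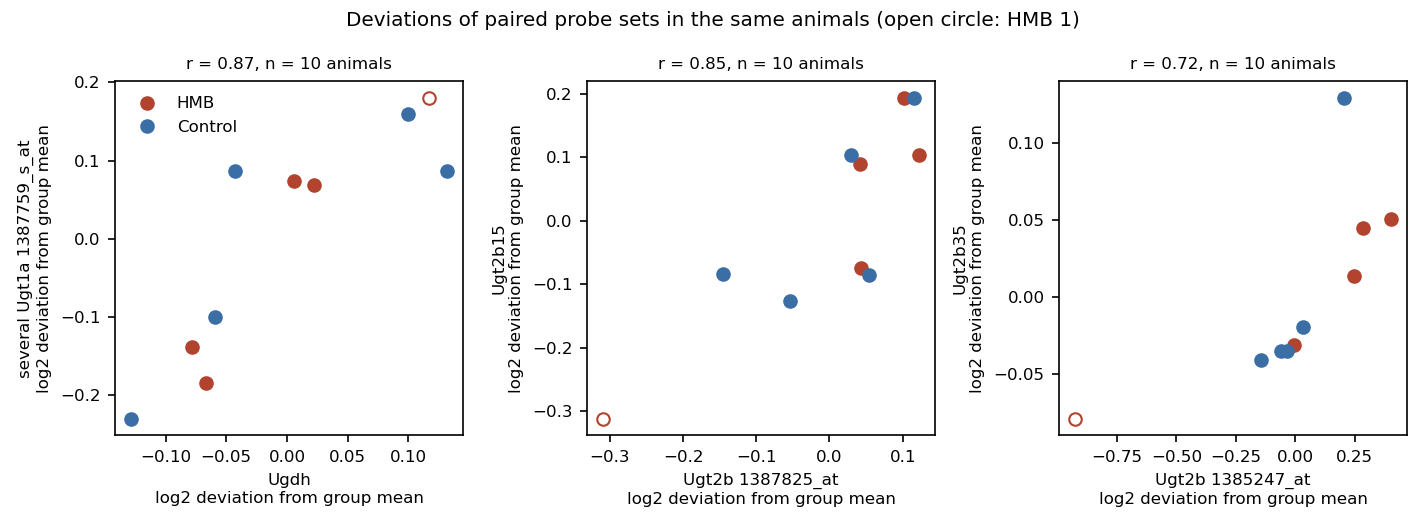
Deviation of each animal from its group mean, in log2 units, for 3 pairs of probe sets in the same 10 animals. Points rise together in each panel (r = 0.87, 0.85 and 0.72), and HMB 1, the open circle, lies at the lower left in both panels that hold a Ugt2b probe set.

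The genes whose deviations were most like those of Ugdh, among 6959 genes with a mean signal of at least 6, were Mgst2, a microsomal glutathione transferase (r = 0.93 over the 10 animals), Aldh1l1, a folate enzyme (0.92), Ephx1, the microsomal epoxide hydrolase (0.91), Mrps30 (0.91) and Rps6 (0.89). Most like the brighter Ugt1a probe set were Lonp2, a peroxisomal protease (0.93), Scpep1 (0.93), Pomt1 (0.93), Zfp503 (0.90) and Taf1d (0.89). These are the highest of 6959 values each and carry no test. None of the 10 genes passed the test between the groups (limma adjusted p from 0.0651 to 0.996).

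Around the transferases, 78 measured genes in 8 lists of connected pathways were followed, each by its brightest probe set. Of these, 3 rose, 2 fell and 73 did not pass, with a median difference of 0.02. The calls were Cyp1a1, Cyp4a1 and Sult5a1 upward and Tiparp and Onecut1 downward. The count moved with the animals included, as did the count over all 31042 probe sets, 528 with all animals. Without control 2, 3, 4 or 5 or without HMB 2, 4 or 5, 0 of the 78 passed, and between 0 and 65 of all probe sets. Without HMB 3, 2 of the 78 and 243 of all passed, without HMB 1, 5 and 997, and without control 1, 9 and 1653. With HMB 1 and 2 left out 8 of the 78 and 2094 of all passed, and with HMB 3 to 5 left out 0 and 0.

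Among 10 genes that make, move or divert UDP-glucuronic acid, none passed, with a median of -0.15 and 9 below 0. A difference above 0 was found in 52.4% of all probe sets. With the lowest 50% of mean levels left out, the median of all probe sets was -0.09. Under cyclic loess Pgm1, Slc35b4 and Enpp3 moved above 0 (0.06, 0.06 and 0.04). Hk2 stayed above 0 there, at 0.22, and the other genes of the list stayed below. Ugp2, which makes UDP-glucose, averaged 12.27 in both groups, a difference of -0.0045 (limma adjusted p = 0.981). Pgm1, the phosphoglucomutase upstream of it, differed by -0.02. The smallest p belonged to Uxs1, which converts UDP-glucuronic acid to UDP-xylose, at -0.30 ± 0.09 (SE, n = 5 per group, adjusted p = 0.0987), then Gys2, the liver glycogen synthase, at -0.28, and Slc35b1 at -0.34. Cyclic loess left Uxs1 at -0.18, Gys2 at -0.17 and Slc35b1 at -0.23 (limma adjusted p from 0.344 to 0.407). In rat liver, glucuronate also feeds ascorbate synthesis. None of 8 genes of ascorbate synthesis and glucuronate use passed, with Gulo, the last enzyme of ascorbate synthesis, at -0.18, Miox at 0.30 and Cryl1 at 0.45 (adjusted p from 0.162 to 0.264 for the 3).

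Transporters that carry glucuronides and bilirubin numbered 8, and none passed. Abcc3, which exports glucuronides across the basolateral membrane, read 5.89, 6.24, 6.01, 6.07 and 6.46 in HMB 1 to 5, against 5.89, 3.95, 5.93, 5.00 and 4.00 in controls 1 to 5. The HMB animals were alike and the controls ranged over almost 2 log2 units, with control 1 and control 3 at the HMB level. Its difference was 1.18 ± 0.36 (SE, 5 rats a group, limma adjusted p = 0.0888). Without control 1 it passed (adjusted p = 0.0384), as did 5.33% of all probe sets, and this was the only 1 of 22 alternative settings in which it passed. Abcc2, which exports bilirubin glucuronides into bile, differed by -0.23 and Slco1b2, an uptake carrier, by 0.16. In the list of heme breakdown to bilirubin, 0 of 4 passed, with Blvrb at 0.19, Hmox2 at -0.15 and Blvra at 0.04. In that of other UDP-sugar transferases 0 of 4 passed, with B3gat1 at 0.21, B3gat3 at -0.15 and Ugt8 at 0.10.

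Of 15 measured regulators of Ugt transcription, 1 fell and 14 did not pass. Onecut1, a hepatocyte transcription factor, read 9.32, 8.27, 8.69, 7.61 and 6.24 in HMB 1 to 5, against 10.20, 10.07, 9.15, 10.32 and 10.37 in controls 1 to 5. HMB 1 lay above control 3, and the other 4 HMB animals lay below every control. It fell by 1.99 ± 0.45 (SE over 5 rats in each group, adjusted p = 0.0479 by limma), and after cyclic loess its difference was -1.90 (adjusted p = 0.0728). Nr1i2, the pregnane X receptor, differed by 0.28 (adjusted p = 0.124) and Nfe2l2, which encodes NRF2, by -0.40 (adjusted p = 0.1303). Ahr had a difference of 0.19 (adjusted p = 0.303).

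Targets of the receptors that also drive Ugt genes gave 2 rises, 1 fall and 9 of 12 that did not pass, beside 1.7% of all probe sets that passed. The list was chosen with earlier results of these data known, so its count carries no test. Cyp2b1 and Cyp2b2 were listed too but had no probe set of their own. Cyp2b12, the only Cyp2b gene measured in the list, averaged 2.33 in HMB rats and 2.31 in controls. The Cyp3a genes of the list differed by 0.02 (Cyp3a23-3a1), 0.01 (Cyp3a2) and 0.14 (Cyp3a9), and none of them passed. Cyp1a1, the AhR-induced monooxygenase, read 4.89, 4.28, 4.16, 4.06 and 4.48 in HMB 1 to 5, against 3.91, 3.00, 3.23, 3.76 and 3.36 in controls 1 to 5. All HMB animals lay above all controls, and the groups did not overlap in 5.77% of all probe sets. The rise of Cyp1a1 at this low signal was 0.92 ± 0.19 (SE, 5 rats a group, limma adjusted p = 0.0380). Tiparp, another AhR target, fell by 0.55 (adjusted p = 0.0416), and Cyp4a1, a target of PPAR-alpha, rose by 0.69 (adjusted p = 0.0411). Other AhR targets on the list did not pass. Cyp1a2, whose groups did not overlap, differed by 0.44 (adjusted p = 0.0523), Nqo1 by 0.65, Cyp1b1 by 0.24 and Aldh3a1 by 0.21 (adjusted p from 0.112 to 0.157 for the last 3). After cyclic loess, which left 125 of all probe sets called, Cyp1a1 was at 0.82 (adjusted p = 0.0664), Tiparp at -0.43 (adjusted p = 0.110) and Cyp4a1 at 0.74 (adjusted p = 0.0538). Cyp1a2 was then at 0.45 (adjusted p = 0.0734) and Nqo1 at 0.77 (adjusted p = 0.116). Cyp1b1 and Aldh3a1, both of mean signals below 6, were at 0.14 and 0.11 (adjusted p = 0.411 and 0.521). In the same animals the Ugt1a probe sets, which cover the AhR target Ugt1a6 together with 7 other Ugt1a genes, differed by 0.12 and 0.03, as given above.

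Sulfation competes with glucuronidation for phenols. Among 17 genes of sulfotransferases and of sulfate supply, 1 rose and 16 did not pass. Sult5a1 read 5.56, 5.51, 5.75, 5.60 and 5.55 in HMB 1 to 5, against 5.22, 5.09, 4.97, 5.21 and 5.21 in controls 1 to 5. The groups did not overlap, and the rise of 0.46 ± 0.08 (SE, 5 rats a group, limma adjusted p = 0.0309) also passed after cyclic loess (adjusted p = 0.0389). Of the 22 alternative settings described at the end, it passed in 12, with limma adjusted p up to 0.320 over all of them. Sult2b1, at -0.33, and Sult1c2, at -0.45, did not pass, and Sult1a1, the phenol sulfotransferase, differed by 0.09.

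**Figure D4:**
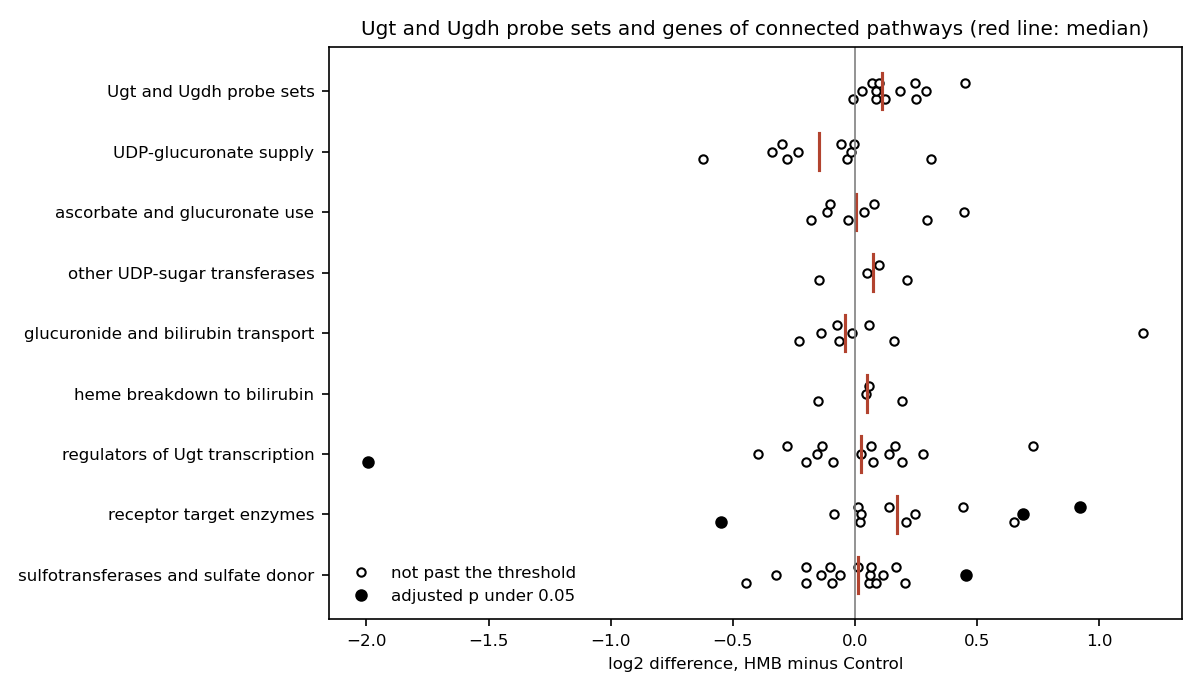
Log2 difference, HMB minus control, of the 12 Ugt and Ugdh probe sets (top row) and of 78 genes in 8 pathway lists, with the median of each row as a red line. Filled points passed the limma test, and the top row holds none, while 5 lie in the 3 lowest rows.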

How the data were processed

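The deposited log2 values come from RMA per the submitters' processing notes, with no version given. RMA adjusts the background, normalizes the arrays to each other and summarises the probes of each set into 1 value. They were used as the authors deposited them. Leaving out 57 manufacturer's controls, 31042 were tested with no filter on low signals. Gene names came from the platform annotation, updated through gene identifiers to the RefSeq table of GRCr8. RefSeq also gave the promoter sequences. No 2 arrays were identical in the 45 pairs.

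Tests used limma 3.58.1 in R 4.3.3 (lmFit and eBayes, HMB minus control, Benjamini-Hochberg over all probe sets, threshold 0.05), with 8 residual and 4.93 prior degrees of freedom. Nothing shows that animals of a group came from separate cages or litters, and p-values treat them as independent. On simulated data of 31042 probe sets, with values drawn independently for each, the step made 3 false calls and found 48% of log2 changes of 0.5 and 96% of log2 changes of 1.

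The members and lists were chosen with earlier results of these data known. All members are described, with every animal's value for those with a mean of at least 6 or an unadjusted p under 0.05. From the lists, calls and the 3 genes with the smallest p per list are named. The second Ugt1a and Ugt2b probe sets, Ugp2, Pgm1, Ahr, Sult1a1 and the further AhR targets and hepatocyte markers were added after their values were seen. So were Slc35b4, Enpp3, Hk2 and the Cyp3a genes. Plots used Python 3.11.15 with matplotlib 3.10.9.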

Additional observations from a re-analysis of the deposited data

Results flagged for a closer look

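Of 24 groups of 5 3 held an animal far from the other 4 (a gap to its nearest neighbour over 0.71 of the group's range), where chance flags about 1 in 20. HMB 1, at 12.87, was low for the brighter Ugt2b probe set, 1387825_at, with the other HMB animals from 13.22 to 13.30. HMB 2, at 9.68, was low for Ugt2b10, with the others from 9.999 to 10.05. Control 1, at 13.11, was high for Ugt2b35, with the others from 12.94 to 12.96.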

How the results depend on the processing

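Of 22 alternative settings, 20 called 0 members, but 6 of these called 0 and 2 called 1 of all 31042 probe sets, so they say little of the members. Without HMB 1 and 2 there were 2 member probe sets changed by HMB, Ugt2b15 and 1385247_at (6.75% of all probe sets), and without control 1 there was 1, Ugt2b34l1 (5.33% of all), so the count ran from 0 to 1 over the 10 left-out animals. The members' median difference, 0.11, ran from 0.074 with arrays at the same median to 0.21 without HMB 1 and 2. It was 0.19 without HMB 1, 0.17 without control 1 and 0.19 with HMB 1 as a control. All these moves were smaller than 0.13, the SD between single animals of their mean over the members. That SD is larger than the error of a difference between group means, so it does not show that the moves are negligible. The count of the 78 pathway genes changed by HMB, 5, was 1 after cyclic loess, after quantile normalization or with HMB 1 counted as a control, 0 without HMB 3 to 5 or with poly-A signal in the fit, 8 without HMB 1 and 2, and 0 to 9 over left-out animals. Some differences changed sign, with no reversed value called. Ugdh was at 0.021 after cyclic loess, 0.011 after quantile normalization, 0.051 without HMB 3 to 5, 0.035 with the poly-A covariate and from -0.043 to 0.023 over left-out animals. The probe set 1387759_s_at was at -0.011 with arrays at the same median, -0.053 with HMB 1 as a control, -0.058 without HMB 1 and 2 and from -0.031 to 0.073 over left-out animals. Without HMB 3 to 5, 1387825_at was at -0.034, 1385247_at at -0.40 and Ugt2b7 at -0.15. With the poly-A covariate 1385247_at was at -0.25 and Ugt2b7 at -0.091, and after cyclic loess Ugt2b7 was at -0.016. Over left-out animals 1385247_at ran from -0.031 to 0.30 and Ugt2b7 from -0.028 to 0.22. The correlation of 1385247_at with Ugt2b35, chosen for this after seeing the data, was 0.87 after cyclic loess and no longer passed. The cause of these changes was not tested. No paired analysis was possible because the replicate numbers follow deposition order and pair no animals. With 5 arrays per group and no detection calls, changes within the printed intervals could not be resolved.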
